A study of Mus musculus with 9 samples.

Results

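The SLAM family receptors and their adaptor SAP were followed here in natural killer (NK) cells of mice, the cytotoxic lymphocytes of innate immunity. The set was named by gene symbol: the receptors Slamf1, Slamf6, Slamf7, Cd48, Cd84 and Ly9, and the adaptor gene Sh2d1a. All probe sets that the array's annotation gives to 1 of these 7 symbols alone were taken, which made 7 of the 18193 genes and 12 of the 45101 probe sets on the array. There were 3 each for Slamf1 and Slamf6, 2 for Cd84 and 1 for each other gene.

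RNA was measured on Affymetrix arrays in sorted NK cells of 3 groups, each with 3 arrays that the labels call biological replicates. The groups were bone marrow NK cells of NKDxIL15tg mice, spleen NK cells of NKDxIL15tg mice and spleen NK cells of IL15tg mice. All mice carried the transgene for interleukin-15 (IL-15), a cytokine that NK cells need to survive, and the labels do not say which promoter drives it. NKD is a transgenic line that lacks most mature NK cells, and its insertion was reported at Atf2, which encodes a transcription factor that binds cAMP response elements. The series' design text calls the NKDxIL15tg cells immature and the IL15tg cells mature. Stage and NKD genotype therefore cannot be told apart, and in the marrow-against-IL15tg comparison the organ differs as well. The age and sex of the mice, the gate of the sort and any pooling of animals are not stated in the labels.

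SLAM family receptors sit on the surface of blood cells, and most of them bind a copy of themselves on a neighbouring cell. CD48 instead is a lipid-anchored ligand of 2B4, the receptor encoded by Cd244a. Tyrosine motifs in the receptors' tails dock SAP, a small protein made of an SH2 domain, which brings in the kinase Fyn. With SAP the receptors can activate NK cells, and without it they can recruit phosphatases and inhibit killing.

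Of the 7 genes, 6 lie in 1 cluster with Cd244a on chromosome 1, at chr1:171558718-171948958 in the mouse assembly GRCm38.p6, which spans 390.2 kb. In the direction of rising coordinates the order is Cd244a, Ly9 (chr1:171588613-171607410), Slamf7 (chr1:171632403-171653037), Cd48 (chr1:171681245-171705258), Slamf1 (chr1:171767131-171801184), Cd84 (chr1:171839697-171890718) and Slamf6 (chr1:171917458-171948958). Sh2d1a lies apart, at chrX:42502565-42522097. The promoter windows of the pair that rose (Slamf6 and Cd84) and the pair that fell (Slamf7 and Cd48) in the comparisons below are shown because these 4 genes share a chromosome segment and moved in opposite directions. Each window runs from 250 bases before to 50 bases after a transcript start that the RefSeq table on GRCm38.p6 lists, 5′ to 3′ on the gene's own strand. The windows are chr1:171917212-171917511 (plus strand) for Slamf6, chr1:171839447-171839746 (plus) for Cd84, chr1:171648950-171649249 (minus) for Slamf7 and chr1:171681742-171682041 (plus) for Cd48. The starts used lie at the outer edge of the gene's span for Cd84 and 4 bases inside it for Slamf6, but 747 bases inside it for Cd48 and 4038 bases inside it for Slamf7, so the windows of Cd48 and Slamf7 belong to inner starts and not to the outermost ones. Capitals mark matches to the core letters of T-box (AGGTGT), RUNX (TGTGGT) and ETS (AGGAAG) factors on either strand.
Slamf6: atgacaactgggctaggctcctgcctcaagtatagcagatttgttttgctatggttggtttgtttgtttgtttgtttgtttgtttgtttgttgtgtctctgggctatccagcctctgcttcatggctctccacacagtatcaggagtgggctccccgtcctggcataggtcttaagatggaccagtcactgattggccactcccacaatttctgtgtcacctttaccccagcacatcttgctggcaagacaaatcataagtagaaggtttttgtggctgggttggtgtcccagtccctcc
Cd84: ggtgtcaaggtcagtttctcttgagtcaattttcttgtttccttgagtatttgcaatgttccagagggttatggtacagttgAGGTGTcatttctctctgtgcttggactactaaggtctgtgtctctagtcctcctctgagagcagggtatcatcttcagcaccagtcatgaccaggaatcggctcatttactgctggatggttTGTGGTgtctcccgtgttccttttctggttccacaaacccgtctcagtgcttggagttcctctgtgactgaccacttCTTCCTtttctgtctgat
Slamf7: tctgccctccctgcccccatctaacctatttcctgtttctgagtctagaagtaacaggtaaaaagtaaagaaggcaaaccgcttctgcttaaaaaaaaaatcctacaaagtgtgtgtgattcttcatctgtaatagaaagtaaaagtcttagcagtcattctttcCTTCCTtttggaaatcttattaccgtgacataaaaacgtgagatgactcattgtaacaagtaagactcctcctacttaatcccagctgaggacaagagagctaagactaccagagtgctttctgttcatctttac
Cd48: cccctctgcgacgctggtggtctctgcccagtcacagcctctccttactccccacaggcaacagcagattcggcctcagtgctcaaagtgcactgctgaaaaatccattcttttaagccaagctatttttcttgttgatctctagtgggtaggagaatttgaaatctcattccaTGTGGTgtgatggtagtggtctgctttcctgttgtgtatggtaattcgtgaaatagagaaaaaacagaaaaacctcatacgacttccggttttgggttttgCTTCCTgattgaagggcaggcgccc
The Cd84 window held 1 match to each of the 3 motifs, the Cd48 window 1 RUNX and 1 ETS match, the Slamf7 window 1 ETS match, and the Slamf6 window none of them. Among the 32851 mouse windows of this length, 13.7% held AGGTGT, 16.8% TGTGGT and 35.4% AGGAAG on either strand. TGACG, the core of a cAMP response element, was in none of the 4 windows and in 20.8% of all windows. These are matches of letters only. The table gave a window for 5 of the 7 genes, and Ly9 and Sh2d1a were not among them.

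One array and several other cell types' markers must be known before the values are read. Bone marrow replicate 3 had a 75th percentile of intensity of 167.7, against 130.5 to 140.5 in the other 8 arrays, and it correlated less with its group (mean rank correlation 0.877) than the others did with theirs (0.916 to 0.976). NK cell markers were all present: each of 13 genes with a probe set averaged above an intensity of 47.7, the filter on dim probe sets, in every group, and their summed intensity was 31430 to 33920 in NKDxIL15tg marrow, 36380 to 39790 in NKDxIL15tg spleen and 47700 to 49660 in IL15tg spleen. Granulocyte and monocyte markers (18 genes) summed to 12430, 19730 and 31520 in NKDxIL15tg marrow, 3819, 4998 and 8403 in NKDxIL15tg spleen, and 1735, 1630 and 1969 in IL15tg spleen. Of the 16 tested, 13 were higher in NKDxIL15tg marrow and 6 in NKDxIL15tg spleen than in IL15tg spleen, and none was lower in either. Erythroid markers (10 genes) summed to 5943 to 7909 in NKDxIL15tg marrow, 7964 to 8650 in NKDxIL15tg spleen and 1946 to 2108 in IL15tg spleen. Most of each sum came from Car2, which averaged 5986 in NKDxIL15tg marrow, 7016 in NKDxIL15tg spleen and 1407 in IL15tg spleen. T cell markers (12 genes, with Cd28 the brightest) summed to 2625 to 3487 in NKDxIL15tg marrow, 2824 to 3183 in NKDxIL15tg spleen and 1376 to 1580 in IL15tg spleen. B cell markers (12 genes) summed to 795.3 to 2552 in NKDxIL15tg marrow, 952.1 to 1017 in NKDxIL15tg spleen and 1329 to 2079 in IL15tg spleen, and those of macrophages and dendritic cells (15 genes) to 1841 to 2361 in NKDxIL15tg marrow, 2717 to 2970 in NKDxIL15tg spleen and 3772 to 6903 in IL15tg spleen. In NKDxIL15tg against IL15tg spleen, 4 of 9 tested erythroid and 2 of 9 T cell markers rose, and 5 of 9 B cell, 4 of 13 macrophage and dendritic cell and 3 of 13 NK cell markers fell, with none the other way. In NKDxIL15tg marrow against IL15tg spleen, 6 of 9 erythroid markers rose, 2 of 9 T cell markers rose and 1 fell, 1 of 9 B cell markers rose and 6 fell, and 5 of 13 macrophage and dendritic cell and 4 of 13 NK cell markers fell. The highest B cell sum, 2552 in marrow replicate 3, came mostly from Cd22, at 1898 there and 272 and 343 in the other marrow arrays, while Ms4a1 and Cd79b read 18.2 and 23.3 in that array. Sums for megakaryocytes (7 genes) ran from 488.6 to 557.3 and for stem and mast cells (9 genes) from 411.7 to 638.8 over all arrays, and no marker of any list was at 0. In such sorted bulk samples, fewer cells of a type and less RNA per cell cannot be told apart.

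The first question the design asks is how the NKDxIL15tg cells, called immature, differ from the IL15tg cells, called mature. Slamf6, Cd84 and Sh2d1a were higher, and Slamf7 and Cd48 lower, in NKDxIL15tg NK cells of both organs than in IL15tg spleen NK cells. Slamf6 changed most, by 6.63-fold in spleen and 10.5-fold in marrow at its leading probe set. Sh2d1a and Cd84 were about 2-fold higher, at 2.16-fold and 1.85-fold in spleen and 2.02-fold and 1.98-fold in marrow. Ly9 missed the threshold in both, and Slamf1 was too dim to test. Levels were tested on a log2 scale with limma, fitted over all 27022 probe sets past the filter, with p-values adjusted by Benjamini-Hochberg over all of them and a threshold of 0.05. Errors of intensities are SDs over 3 arrays, and errors of log2 changes are standard errors of the fit.

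Of the 12 probe sets, 9 from 6 genes passed the filter. In NKDxIL15tg against IL15tg spleen, 5 of these 9 were called higher and 2 lower, where 6.75% of all probe sets tested were called higher and 7.04% lower (13.8% in all, 3725 probe sets). The 13.8% itself changed when an array was left out, which also leaves fewer arrays in its group. Without IL15tg spleen replicate 1, 2 or 3 or NKDxIL15tg spleen replicate 2, only 1809, 1812, 2070 and 2112 probe sets were called. Without NKDxIL15tg marrow replicate 3, 5483 were called. In NKDxIL15tg marrow against IL15tg spleen, again 5 were called higher and 2 lower, where 9.79% of all probe sets were called higher and 11.5% lower (21.3% in all, 5764 probe sets, and 3089 and 3480 without IL15tg spleen replicates 1 and 2). Both comparisons use the same IL15tg arrays, so their likeness is not a repeat. The median change of the 9 probe sets was 0.89 in spleen and 0.99 in marrow on the log2 scale, against medians over all probe sets of 0.00 and 0.08. Slamf6 gave 3 of the 9 and Cd84 2, so genes that rose count repeatedly. With only the brightest probe set of each gene, the median of the 6 tested genes was 0.31 in spleen and 0.34 in marrow. In each comparison 3 of these genes were called higher, 2 lower and 1 was not called. The middle 90% of all probe sets ran from -0.74 to 0.68 in spleen and from -0.89 to 0.88 in marrow.

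**Figure D1:**
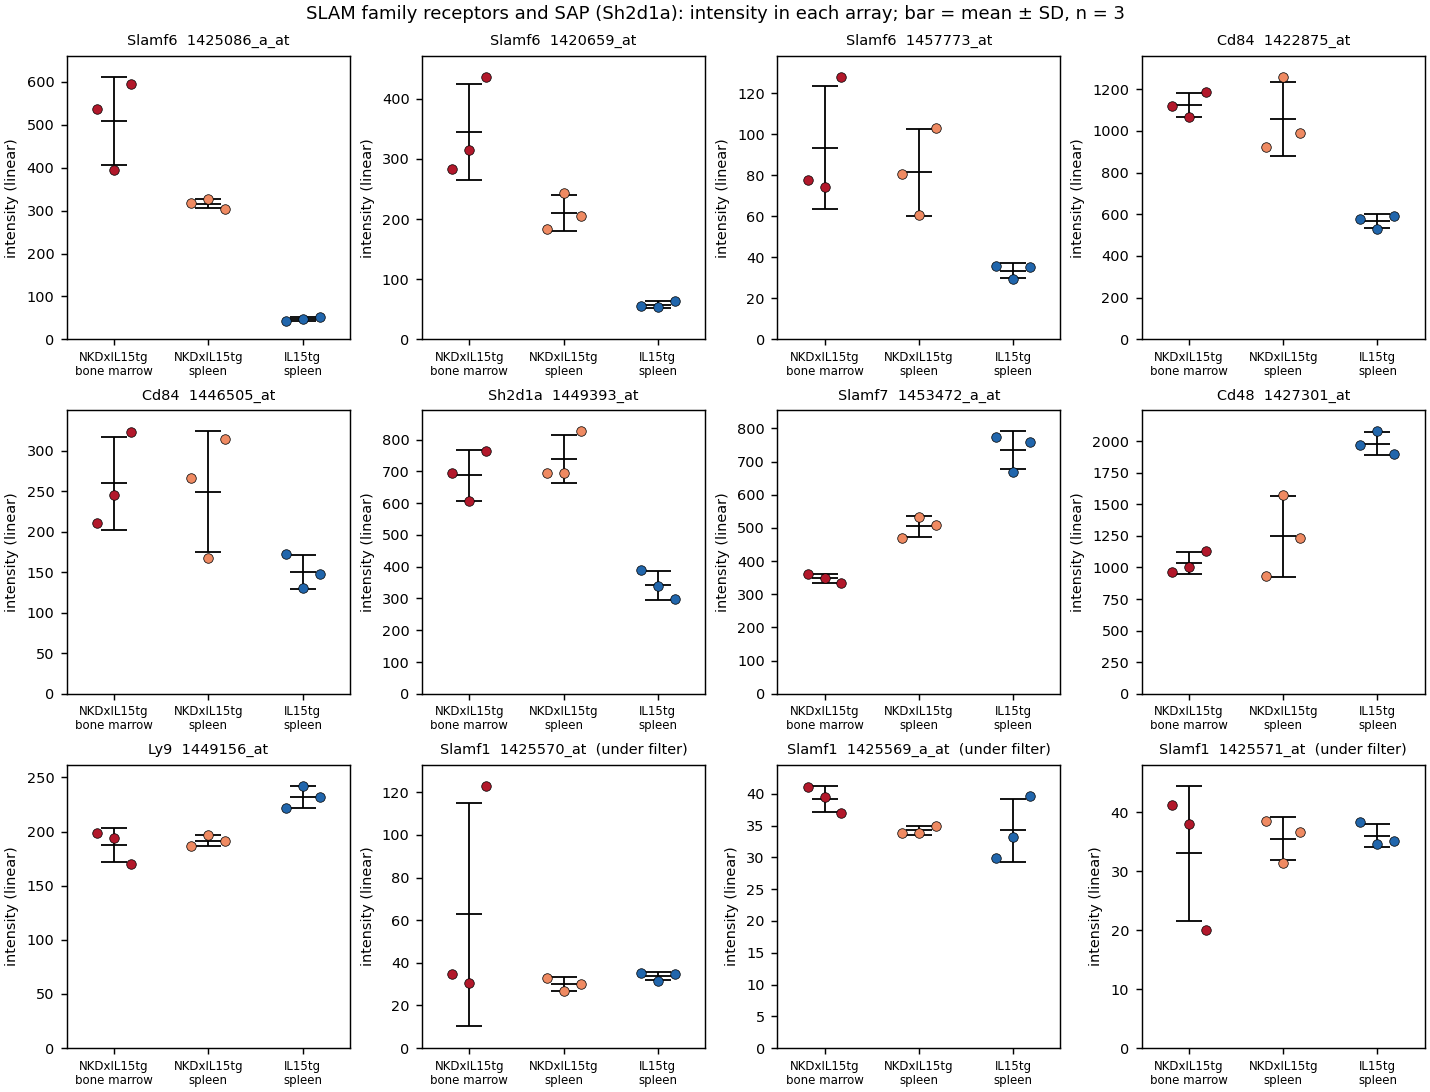
Linear intensity of each of the 12 probe sets in each array, with NKDxIL15tg bone marrow, NKDxIL15tg spleen and IL15tg spleen from left to right; points are arrays, bars the mean ± SD of 3. All 6 NKDxIL15tg arrays lie above the 3 IL15tg arrays for Slamf6, for the first Cd84 probe set and for Sh2d1a, and below them for Slamf7, Cd48 and Ly9.

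Slamf6 encodes Ly108 (NTB-A in humans), a receptor that binds itself and signals through SAP. Its probe set 1425086_a_at read 536, 394 and 595 in NKDxIL15tg marrow, 318, 326 and 304 in NKDxIL15tg spleen, and 43.2, 48.5 and 51.5 in IL15tg spleen. The IL15tg values lie near the filter intensity of 47.7 and below the array medians of 56.6 to 64.9, while all 6 NKDxIL15tg arrays lie far above both, and no groups overlap. The log2 change was 2.73 ± 0.16 in NKDxIL15tg against IL15tg spleen (adjusted p = 1.39e-05) and 3.39 ± 0.16 in NKDxIL15tg marrow against IL15tg spleen (adjusted p = 3.57e-06). Only 99 of the 27022 probe sets had a larger increase in the spleen comparison and 64 in the marrow comparison. Since the lower group is close to the dimmest values tested, the size of the change depends on how dim values are treated: with a floor of 64 in place of 16 it was 2.30 and 2.97.

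The other Slamf6 probe sets gave smaller changes in the same direction. Probe set 1420659_at read 284, 314 and 436 in NKDxIL15tg marrow, 183, 243 and 205 in NKDxIL15tg spleen, and 55.1, 53.0 and 64.3 in IL15tg spleen. Its log2 changes were 1.87 ± 0.18 in spleen (adjusted p = 0.00029) and 2.56 ± 0.18 in marrow (adjusted p = 3.8e-05). Probe set 1457773_at was dimmer, with 78.0, 74.3 and 128 in NKDxIL15tg marrow, 80.8, 60.8 and 103 in NKDxIL15tg spleen, and 35.9, 29.3 and 35.2 in IL15tg spleen. It changed by 1.26 ± 0.25 in spleen (adjusted p = 0.0113) and 1.44 ± 0.25 in marrow (adjusted p = 0.00411), with no overlap with IL15tg in either. With the floor of 64, which covers all of its IL15tg values, it missed the threshold at 0.34 (adjusted p = 0.497) and 0.50 (adjusted p = 0.221), and without IL15tg spleen replicate 2 at 1.16 in spleen (adjusted p = 0.0526). The first 2 probe sets kept their call in all 18 alternatives in both comparisons.

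Cd84 encodes a receptor that also binds itself and docks SAP. Probe set 1422875_at read 1118, 1067 and 1185 in NKDxIL15tg marrow, 922, 1258 and 992 in NKDxIL15tg spleen, and 577, 530 and 594 in IL15tg spleen. Every NKDxIL15tg array lay above every IL15tg array. It rose by 0.89 ± 0.13 in spleen (adjusted p = 0.00308) and by 0.99 ± 0.13 in marrow (adjusted p = 0.00124) on the log2 scale, and both calls held in all 18 alternatives. The second Cd84 probe set, 1446505_at, had 211, 245 and 323 in NKDxIL15tg marrow, 266, 168 and 314 in NKDxIL15tg spleen, and 173, 131 and 148 in IL15tg spleen. Its spleen groups overlapped through NKDxIL15tg replicate 2, and its marrow group did not overlap with IL15tg. The log2 changes of 0.68 ± 0.25 (adjusted p = 0.103) and 0.77 ± 0.25 (adjusted p = 0.0537) did not pass. The spleen change passed in 4 of 18 alternatives: without NKDxIL15tg spleen replicate 2 (0.95, adjusted p = 0.0308), without NKDxIL15tg marrow replicate 3 (adjusted p = 0.0491), with quantile normalization (adjusted p = 0.0497) and with array weights (adjusted p = 0.0148). The marrow change passed in 7 of 18 (adjusted p = 0.0202 to 0.0465), among them quantile normalization, the common 75th percentile, array weights, the fit to only the 2 groups compared and the fits without NKDxIL15tg spleen replicate 2 or 3.

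Sh2d1a, the gene of SAP, moved with these receptors. Its probe set 1449393_at read 694, 606 and 766 in NKDxIL15tg marrow, 695, 695 and 826 in NKDxIL15tg spleen, and 390, 338 and 298 in IL15tg spleen. The lowest NKDxIL15tg array stood well above the highest IL15tg array. The log2 change was 1.11 ± 0.14 in spleen (adjusted p = 0.00144) and 1.01 ± 0.14 in marrow (adjusted p = 0.00157), and both calls held in all 18 alternatives. Over the same arrays the T cell markers Cd28 and Trat1 were higher too. Cd28, a costimulatory receptor known best in T cells, averaged 1410 in NKDxIL15tg marrow, 1637 in NKDxIL15tg spleen and 380 in IL15tg spleen, and both its changes and those of Trat1 passed the test. The CD3 genes, which define T cells, did not pass in either comparison. Cd3d read 316, 608 and 346 in NKDxIL15tg marrow, 191, 651 and 321 in NKDxIL15tg spleen, and 234, 249 and 332 in IL15tg spleen (0.35 in spleen, adjusted p = 0.678, and 0.59 in marrow, adjusted p = 0.318). Cd3g read 95.6, 251 and 113 in NKDxIL15tg marrow, 72.6, 458 and 60.1 in NKDxIL15tg spleen, and 92.1, 88.1 and 122 in IL15tg spleen (0.34, adjusted p = 0.844, and 0.48, adjusted p = 0.629). Both were highest in replicate 2 of each NKDxIL15tg group. Cd3e averaged 67.5 in NKDxIL15tg marrow, 60.4 in NKDxIL15tg spleen and 56.1 in IL15tg spleen. The part of T cell RNA in the Sh2d1a values was not tested.

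Slamf7 encodes CRACC, a self-binding receptor that in NK cells works through the SAP-related adaptor EAT-2 rather than SAP. Its values lay in 3 separate bands, with 360, 350 and 333 in NKDxIL15tg marrow, 470, 534 and 510 in NKDxIL15tg spleen, and 774, 669 and 759 in IL15tg spleen (probe set 1453472_a_at). None of the 3 groups overlapped. The log2 change was -0.54 ± 0.11 in spleen (1.45-fold lower, adjusted p = 0.0112) and -1.08 ± 0.11 in marrow (2.11-fold lower, adjusted p = 0.000252). The marrow call held in all 18 alternatives. The spleen call was lost with arrays scaled to a common 75th percentile (-0.51, adjusted p = 0.0639) and without IL15tg spleen replicate 1 (adjusted p = 0.0524).

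Cd48 encodes the ligand of 2B4. Probe set 1427301_at read 962, 1005 and 1133 in NKDxIL15tg marrow, 932, 1576 and 1230 in NKDxIL15tg spleen, and 1967, 2077 and 1896 in IL15tg spleen. All NKDxIL15tg arrays lay below all IL15tg arrays, and the NKDxIL15tg spleen arrays were spread most widely, with replicate 2 the highest. Cd48 fell by 0.94 on the log2 scale in marrow (SE 0.18, adjusted p = 0.00659, 1.92-fold lower), a call that held in all 18 alternatives. In spleen it fell by 0.70 (SE 0.18, adjusted p = 0.0316, 1.62-fold lower), and this call was fragile. It was lost without IL15tg spleen replicate 1, 2 or 3 (adjusted p = 0.0974, 0.108 and 0.0794), without NKDxIL15tg spleen replicate 1 (-0.51, adjusted p = 0.0665) or 3 (adjusted p = 0.0702), with the floor of 64 (adjusted p = 0.0526) and with no filter (adjusted p = 0.0554).

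Ly9 encodes CD229, another receptor that binds itself. Probe set 1449156_at read 199, 194 and 170 in NKDxIL15tg marrow, 187, 197 and 191 in NKDxIL15tg spleen, and 222, 242 and 232 in IL15tg spleen. Both NKDxIL15tg groups lay below the IL15tg group without overlap. Of all probe sets tested, 38.1% did not overlap in the spleen comparison and 42.9% in the marrow comparison. The log2 changes of -0.27 ± 0.10 (adjusted p = 0.117) and -0.31 ± 0.10 (adjusted p = 0.0615) did not pass. With the floor of 64 they did (adjusted p = 0.0418 and 0.0213), as did the spleen change with array weights (adjusted p = 0.0453) and the marrow change with no filter (adjusted p = 0.0381).

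Slamf1 encodes CD150, a self-binding receptor known on T cells, B cells and blood stem cells. None of its 3 probe sets reached the filter, so none was tested. Probe set 1425569_a_at ran from 37.0 to 41.0 in NKDxIL15tg marrow, 33.8 to 35.0 in NKDxIL15tg spleen and 29.9 to 39.6 in IL15tg spleen. Probe set 1425571_at ran from 20.0 to 41.2 in NKDxIL15tg marrow, 31.4 to 38.5 in NKDxIL15tg spleen and 34.6 to 38.3 in IL15tg spleen. Its marrow and NKDxIL15tg spleen values overlapped, while those of 1425569_a_at did not, being higher in marrow. Of all tested probe sets, 16.1% did not overlap in that comparison. The third probe set, 1425570_at, read 123 in 1 marrow array and is given at the end. At these low intensities no difference was tested.

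**Figure D2:**
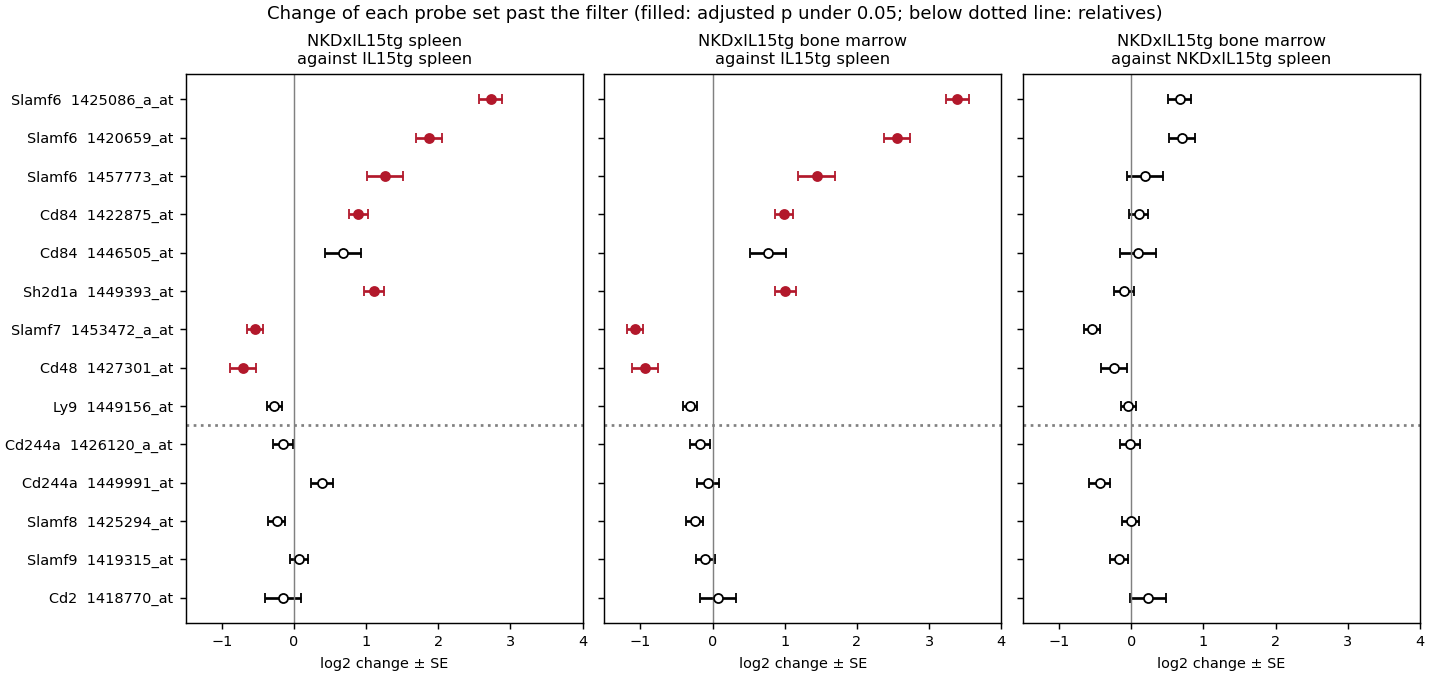
Log2 change ± standard error of each tested probe set of the members (above the dotted line) and of related genes (below it), in the 3 comparisons; filled points passed an adjusted p of 0.05. Slamf6, Cd84 and Sh2d1a lie to the right and Slamf7 and Cd48 to the left in both comparisons with IL15tg spleen, and no point is filled in marrow against spleen.

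The second question is whether organ matters within NKDxIL15tg mice. None of the 9 tested probe sets of the family was called in marrow against spleen, where 0.0518% of all probe sets (14) were called, 0.0111% higher and 0.0407% lower. At an unadjusted p under 0.05 there were 3 of 9, against 10.4% of all. The groups did not overlap in 3 probe sets: Slamf6 1425086_a_at (0.67 ± 0.16, unadjusted p = 0.00211, adjusted p = 0.324), Slamf6 1420659_at (0.70 ± 0.18, unadjusted p = 0.00376, adjusted p = 0.356) and Slamf7 (-0.54 ± 0.11, unadjusted p = 0.000648, adjusted p = 0.254). Over all probe sets, 16.1% did not overlap. The changes of Cd84 (0.10 and 0.09), Sh2d1a (-0.10), Cd48 (-0.24), Ly9 (-0.04) and Slamf6 1457773_at (0.19) had adjusted p-values of 0.55 to 0.899. Replicates of equal number deviated together in this comparison, and with the replicate number as a block 23 probe sets were called over the array, still none of the family.

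**Figure D3:**
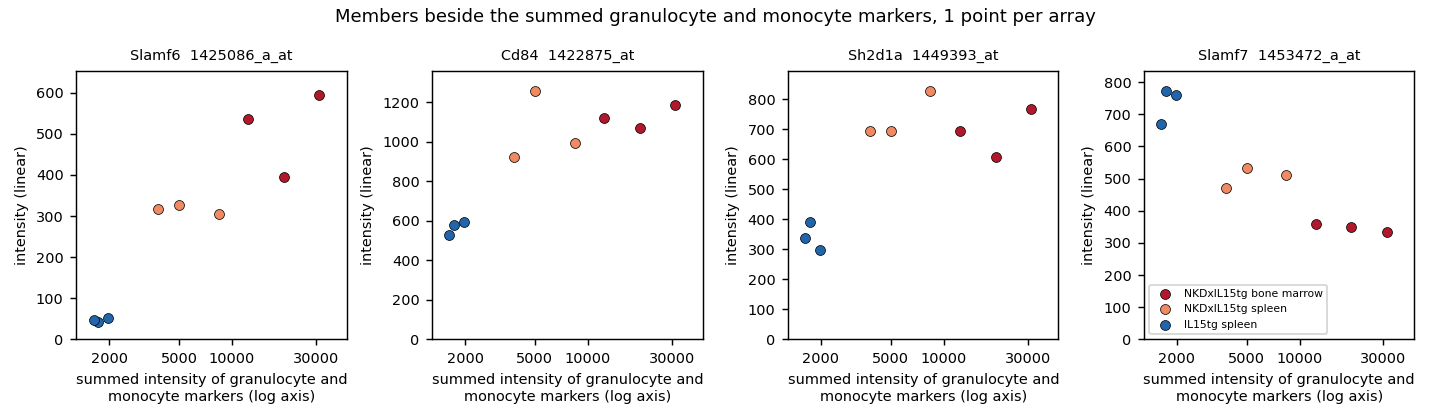
Linear intensity of 4 members (vertical axes) against the summed intensity of 18 granulocyte and monocyte markers (horizontal log axis), 1 point per array, coloured by group. Within NKDxIL15tg spleen the marker sum runs from 3819 to 8403 and Slamf6 1425086_a_at from 304 to 326. Within NKDxIL15tg marrow the sum runs from 12430 to 31520 and this probe set from 394 to 595. The other Slamf6 probe sets are not shown.

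The summed granulocyte and monocyte markers were higher in both NKDxIL15tg groups than in IL15tg spleen, as were Slamf6, Cd84 and Sh2d1a. Slamf7, Cd48 and Ly9 had lower values there. The sums were also higher in marrow than in spleen of NKDxIL15tg mice, though only 3 of the 16 tested markers were called there. In that comparison Slamf6 1425086_a_at and 1420659_at differed by 0.67 and 0.70 and Slamf7 by -0.54, and no member was called. S100a8, a granulocyte protein, averaged 5421 in NKDxIL15tg marrow, 1806 in NKDxIL15tg spleen and 147 in IL15tg spleen. Not every marker of the list rose in NKDxIL15tg against IL15tg spleen: Mmp9 gave -0.01 (adjusted p = 0.98) and Csf1r -0.16 (adjusted p = 0.893). Within the NKDxIL15tg spleen arrays the marker sum differed from 3819 to 8403, while Slamf6 1425086_a_at read 318, 326 and 304 in the arrays with sums of 3819, 4998 and 8403. Within NKDxIL15tg marrow the sums of 12430, 19730 and 31520 stood beside Slamf6 values of 536, 394 and 595 and Slamf7 values of 360, 350 and 333. In the same marrow arrays Slamf6 1420659_at read 284, 314 and 436 and 1457773_at 78.0, 74.3 and 128. In the NKDxIL15tg spleen arrays, in the order of the sums above, they read 183, 243 and 205, and 80.8, 60.8 and 103. Beyond these values, the part of granulocyte RNA in the differences was not tested.

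The relatives of these receptors did not pass the test in any comparison. Cd244a encodes 2B4, the receptor for CD48. Its probe set 1449991_at had 1426, 1457 and 1152 in NKDxIL15tg marrow, 1642, 2058 and 1787 in NKDxIL15tg spleen, and 1484, 1520 and 1197 in IL15tg spleen. The spleen groups did not overlap, with a log2 difference of 0.39 ± 0.15 (adjusted p = 0.125), and marrow differed from IL15tg spleen by -0.06 (adjusted p = 0.795). The other Cd244a probe set, 1426120_a_at, differed by -0.15 (adjusted p = 0.562) and -0.17 (adjusted p = 0.385). Cd2, whose product also binds CD48 in mice, differed by -0.15 in spleen (adjusted p = 0.803) and 0.08 in marrow (adjusted p = 0.823), and Slamf8 and Slamf9 had adjusted p-values of 0.181 to 0.821 in these comparisons. The adaptor genes Sh2d1b1 and Sh2d1b2 share their probe set, so no value is given for either.

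Of 35 listed signalling partners of SLAM receptors, 31 could be read from an unshared probe set, and all 31 were tested. In spleen, where 13.8% of all probe sets were called, 4 rose, 2 fell and 25 did not pass, with a median change of -0.05. In marrow against IL15tg spleen, where 21.3% of all were called, 2 rose, 2 fell and 27 did not pass, with a median of -0.04. None passed in marrow against spleen of NKDxIL15tg mice, where 0.0518% of all were called. Ptpn11, which encodes the phosphatase SHP-2 that binds SLAM receptor tails, averaged 868 in NKDxIL15tg marrow, 1012 in NKDxIL15tg spleen and 590 in IL15tg spleen, and rose by 0.79 ± 0.17 in spleen (adjusted p = 0.0156) and 0.56 ± 0.17 in marrow (adjusted p = 0.0405). Rasgrp1, an activator of Ras in lymphocytes, averaged 1370 in NKDxIL15tg marrow, 1309 in NKDxIL15tg spleen and 904 in IL15tg spleen, and rose by 0.53 ± 0.12 in spleen (adjusted p = 0.0178) and 0.59 ± 0.12 in marrow (adjusted p = 0.00787). Fgr, a Src family kinase, averaged 107 in NKDxIL15tg marrow, 120 in NKDxIL15tg spleen and 229 in IL15tg spleen, and fell by 0.97 in spleen (adjusted p = 0.0231) and by 1.12 in marrow (adjusted p = 0.00883).

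Sh2b3, an adaptor that restrains cytokine signalling, averaged 115 in NKDxIL15tg marrow, 137 in NKDxIL15tg spleen and 215 in IL15tg spleen, and fell by 0.67 in spleen (adjusted p = 0.0448) and by 0.92 in marrow (adjusted p = 0.00951). The remaining spleen calls were the adaptor gene Nck1, which rose by 0.49 ± 0.14 (adjusted p = 0.0497), and Becn1, a gene of the autophagy machinery, which rose by 0.36 ± 0.09 (adjusted p = 0.0335). Their marrow differences from IL15tg spleen did not pass, and neither did those of NKDxIL15tg marrow from NKDxIL15tg spleen (-0.21, adjusted p = 0.52, for Nck1 and -0.39, adjusted p = 0.335, for Becn1). These are the brightest probe sets of each gene, and others differed in spleen. Fgr 1419526_at gave 0.13 (adjusted p = 0.59). The other Ptpn11 probe sets gave -0.01 and 0.16 (adjusted p = 0.979 and 0.423). Those of Nck1 gave -0.04 and -0.07 (adjusted p = 0.914 and 0.827), and that of Sh2b3 0.04 (adjusted p = 0.906). Becn1 1437006_x_at gave -0.32 (adjusted p = 0.32), while Becn1 1460320_at rose in both comparisons with IL15tg spleen, by 0.56 (adjusted p = 0.0138) and 0.45 (adjusted p = 0.0233). The other Rasgrp1 probe sets had positive changes of 0.27 to 0.58 in spleen. The marrow calls of Rasgrp1, Fgr and Sh2b3 held in all 18 alternatives and that of Ptpn11 in 7. The Ptpn11 call was lost without IL15tg spleen replicate 2 or 3, NKDxIL15tg spleen replicate 2 or 3, or marrow replicate 1 or 3 (adjusted p = 0.0516 to 0.134). It was also lost with quantile normalization, the common 75th percentile, the floor of 64, no filter and only the 2 groups compared (adjusted p = 0.0536 to 0.0651). The Sh2b3 spleen call was lost with the first 4 of these (adjusted p = 0.0731 to 0.0793) and that of Becn1 with the first 2 (adjusted p = 0.157 and 0.123). The Nck1 spleen call was lost with the floor of 64, no filter and the eBayes trend (adjusted p = 0.0544 to 0.0646). Every one of the 6 spleen calls was lost without IL15tg spleen replicate 2 (adjusted p = 0.059 to 0.126) and without replicate 3 (adjusted p = 0.0542 to 0.162), and the Nck1 and Becn1 calls also with the replicate block (adjusted p = 0.0784 and 0.054). Without IL15tg spleen replicate 1, 5 of them were lost (adjusted p = 0.0605 to 0.153), without NKDxIL15tg spleen replicate 1, 2 or 3, 5, 3 and 4 (adjusted p = 0.0507 to 0.148), and without marrow replicate 1 or 2, Nck1 (adjusted p = 0.0664 and 0.0529) and, for replicate 1, Becn1 (adjusted p = 0.055). Fyn, the kinase that SAP recruits, averaged 2277 in NKDxIL15tg marrow, 2194 in NKDxIL15tg spleen and 2376 in IL15tg spleen, and did not pass (-0.13 in spleen, adjusted p = 0.746, and -0.08 in marrow, adjusted p = 0.769).

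Along chromosome 1, the 3 consecutive genes Ly9, Slamf7 and Cd48 had lower values in NKDxIL15tg than in IL15tg cells, the next gene Slamf1 was too dim to test, and the following genes Cd84 and Slamf6 had higher values. Of the 21 protein-coding genes listed around and within the cluster, 16 had a probe set and 12 were tested. In spleen, where 13.8% of all probe sets were called, 1 of them, Ncstn, fell by 0.52 (adjusted p = 0.0381) and none rose. Its other probe set, 1418570_at, went the other way without passing (0.18, adjusted p = 0.687). In marrow against IL15tg spleen, where 21.3% of all probe sets were called, 2 rose and none fell. Vangl2, which lies next to Slamf6 and encodes a planar cell polarity protein, averaged 84.1 in NKDxIL15tg marrow, 60.3 in NKDxIL15tg spleen and 44.7 in IL15tg spleen. It rose by 0.90 ± 0.13 in marrow (adjusted p = 0.00162, and 0.0532 with the floor of 64), and its spleen difference was 0.43 ± 0.13 (adjusted p = 0.0551). The other Vangl2 probe sets, 1436118_at and 1455592_at, were under the filter. With no filter they differed by 0.07 and 0.19 in marrow against IL15tg spleen. Pfdn2, a subunit of the chaperone prefoldin, rose by 0.47 ± 0.13 in marrow (adjusted p = 0.0329). This call was lost without IL15tg spleen replicate 1 or 3 or any 1 marrow array (adjusted p = 0.0525 to 0.102). It was also lost with quantile normalization (adjusted p = 0.0691) and the common 75th percentile (adjusted p = 0.0893). The Ncstn call was lost in 9 of 18 alternatives, among them the replicate block (adjusted p = 0.0575) and the fits without IL15tg spleen replicate 1, 2 or 3, NKDxIL15tg spleen replicate 2 or 3, or marrow replicate 1 (adjusted p = 0.0546 to 0.135).

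**Figure D4:**
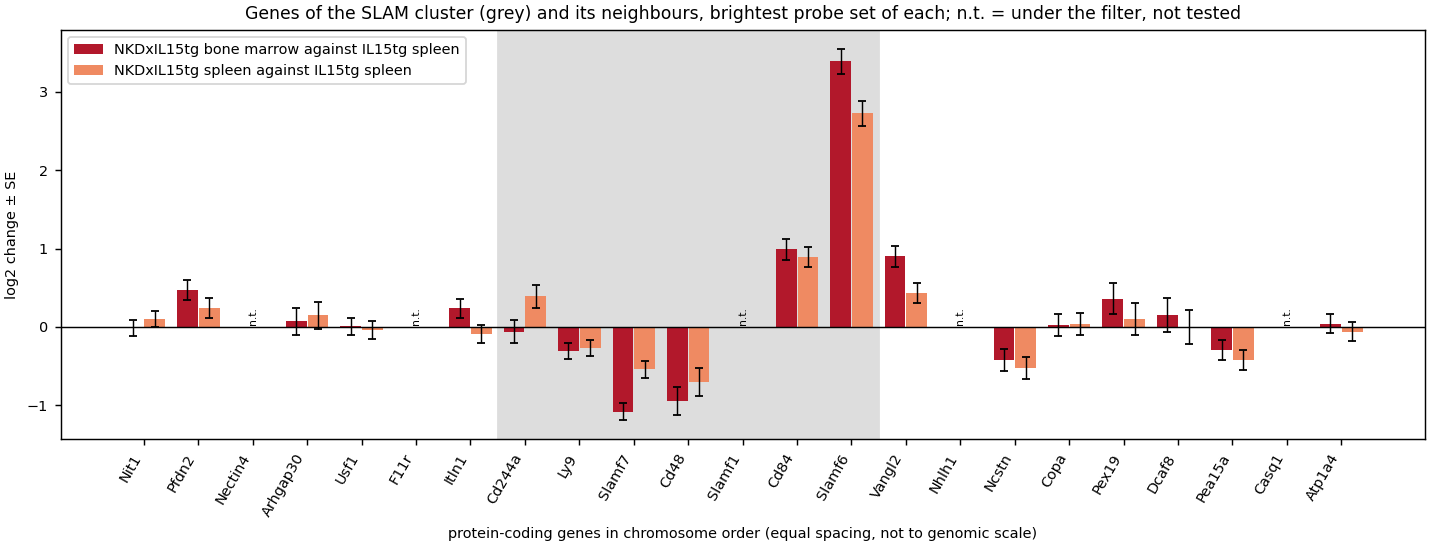
Log2 change ± standard error of the brightest probe set of each gene of the SLAM cluster (grey) and its neighbours, in chromosome order with equal spacing, for NKDxIL15tg marrow and NKDxIL15tg spleen, each against IL15tg spleen. Slamf7 and Cd48 point down and Cd84 and Slamf6 up, with Slamf1 between them not tested.

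The genes whose pattern over the 9 arrays was most like each member's were found among 4642 genes by Pearson correlation of log2 intensity. These values mainly reflect the split between the genotypes, which all arrays share, and are a description. For Slamf6 1425086_a_at they were Tars, Capn3 and Khdrbs3 (r = 0.992 to 0.993), for 1420659_at Hmgb3, Rpain and Tubb5 (0.988 to 0.994), and for 1457773_at Spo11, Rnase4 and Fhit (0.968 to 0.988). Cd84 1422875_at was most like Rps6, Pus1 and Tfdp1 (0.991 to 0.995), and 1446505_at like Trpm3, A930011G23Rik and Spo11 (0.927 to 0.95). For Sh2d1a they were Rhoq, Cd28 and Mrpl3 (0.979 to 0.983). Slamf7 was most like Mad1l1, Rdh10 and Orc5 (0.977 to 0.988), Cd48 like Kctd6, Mir22hg and Gpr65 (0.957 to 0.977), and Ly9 like Klf6, Dnajc12 and Ndnf (0.959 to 0.983).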

How the data were processed

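For each array the authors deposited a table with 1 linear intensity for every probe set. The summary of probes, the scaling and the detection calls are not given in the sources used here. Per the labels' protocols, 150 ng of total RNA went through 2 cycles of 3′ amplification. Intensities below 16 were set to 16 (4.36% of values; none of the members') and converted to log2, which was not done in the deposited table. The filter kept 27022 of 45101 probe sets with a mean log2 over the 9 arrays of at least 5.58 (the 40th percentile, an intensity of 47.7), without the 64 control probe sets. Probe sets with 1 symbol in the platform annotation (34945, for 18193 genes) were named, and 932 with several and 9160 with none were not. Gene coordinates and promoters are from RefSeq tables on GRCm38.p6.

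Means of the 3 groups were fitted with limma 3.58.1 in R 4.3.3 (lmFit, eBayes, 2-sided, Benjamini-Hochberg adjustment), and the code was tested on simulated data. The number of arrays, 3 per group, limits the precision, and where the labels' biological replicates share animals the p-values measure a smaller spread.

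Alternatives were quantile normalization, a common 75th percentile, a floor of 64, log2(value + 16), no filter, only the 2 groups compared, array weights, a trend in eBayes, a replicate block and leaving out each array. Replicates of equal number deviated together in NKDxIL15tg marrow against spleen (r = 0.379, 0.258 and 0.228 for the deviations from the group means). No pair of unequal number had a positive r there. Deviations from a group mean cancel within the group, so this follows in part from the positive equal pairs and is not separate evidence. In NKDxIL15tg against IL15tg spleen equal numbers had r = 0.163, 0.156 and 0.123. Some unequal pairs came close: 0.155 for IL15tg replicate 1 with NKDxIL15tg replicate 3, 0.141 for 2 with 1 and 0.115 for 3 with 2. Equal numbers are therefore not shown to pair in that comparison. In marrow against IL15tg spleen they did not deviate together throughout (0.17, -0.024 and 0.242). The labels do not say what the numbers share.

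The members and gene lists were chosen with earlier results of these data known. The rule for names took every member probe set, the relatives with a probe set of their own, partners and neighbours called in a comparison, and the 3 genes most like each member. Of the partners that did not pass, only Fyn is named, after its values were seen.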

Additional observations from a re-analysis of the deposited data

How the results depend on the processing

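No result for the family turned its direction past the threshold under any of 18 alternatives. In NKDxIL15tg against IL15tg spleen, 7 of the 9 tested probe sets were called, and 5 to 9 under the alternatives. In marrow against IL15tg spleen 7 were called, and 7 to 8 under the alternatives. With the replicate block these counts were 7 and 8, the added one being Cd84 1446505_at (adjusted p = 0.035), and in marrow against spleen 0 under all. Over the array, the spleen comparison called 3725 probe sets, 5685 with array weights, 1809 to 5483 with 1 array left out and 3789 with the replicate block. Marrow against spleen called 14, and 4 with the floor of 64, 2 with no filter, 23 with the replicate block and 1 to 15 with 1 array left out: 1 without NKDxIL15tg spleen replicate 1, 4 without its replicate 3 and 4 without marrow replicate 2. Marrow against IL15tg spleen called 5764, 3089 to 6342 with 1 array left out and 5957 with the replicate block. In NKDxIL15tg against IL15tg spleen the block lost the Nck1, Becn1 and Ncstn calls given above. It changed no other call there or in marrow against spleen among members, relatives and the brightest probe sets of called partners and neighbours. For other named genes, such as Cd28 and Fyn, the effect of the block was not examined. Probe sets near the filter intensity, such as Slamf6 in IL15tg spleen and all of Slamf1, are limited by their dimness.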

Other observations

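One Slamf1 probe set stood apart in a single array. 1425570_at read 34.9, 30.4 and 123 in NKDxIL15tg marrow, 33.0, 26.8 and 30.3 in NKDxIL15tg spleen, and 35.2, 31.5 and 34.9 in IL15tg spleen. In marrow replicate 3, the array with 123, the other Slamf1 probe sets read 37.0 and 20.0.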
